A study of Mus musculus with 2 samples.

Results

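The 10 genes described here encode transcription factors of the cerebellar granule neuron lineage: Pax6, Neurod1, Neurod2, Etv1, Barhl1, Atoh1, Nfia, Nfib, Nfix and Meis1. They were taken as a named list and matched by Ensembl gene identifier, and 10 of 10 were found among the 43346 annotated genes of both libraries. The libraries are polyadenylated RNA, depleted of ribosomal RNA and longer than 200 nucleotides, from whole cerebellum of C57BL/6J mice aged 8 weeks, males and females pooled from littermates. This is a common inbred strain, and no treatment or genetic change is labelled. Both libraries form 1 group, with biological replicate numbers 1 and 2 and a shared donor record, so no test between conditions exists and the spread between them may be technical. Gene entries held 79771873 expected counts (estimated fragments) in replicate 1 and 80281011 in replicate 2, and the 10 genes held 100587 and 89637 of them.

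Granule neurons are small excitatory neurons and the most numerous neurons of the brain. Their progenitors arise from the rhombic lip under Atoh1, divide in the external granular layer of the young animal, then leave the cell cycle, migrate inward and mature. Factors of the bHLH class such as Neurod1 bind DNA as dimers with E proteins, the NFI proteins bind DNA as dimers of their own family, and several members also act in other cell types, for example the NFI genes in glia.

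Much of the variety of these factors lies in alternative exons, so the exons that the later results turn on are shown first, in capitals, with 30 bases of the neighbouring exons in lower case. Sequences and positions are from GENCODE M21 transcripts on mm10. The Pax6 exon known as 5a (chr2:105684751-105684792, plus strand, exon 5 of 13 of Pax6-201) has 42 bases and adds 14 codons inside the paired domain, the DNA-binding domain shared by Pax proteins. The first line shows it included and the second shows the join without it.
Pax6 5a included: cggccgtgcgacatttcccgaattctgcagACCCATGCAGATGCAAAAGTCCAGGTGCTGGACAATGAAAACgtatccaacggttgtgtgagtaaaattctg
Pax6 5a skipped: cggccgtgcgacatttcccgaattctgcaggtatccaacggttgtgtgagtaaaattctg

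The alternative exons of the Nfi genes lie downstream of the exons for the DNA-binding domain, in the part of the protein that regulates transcription. Those of Nfia span chr4:98041551-98041679 (129 bases) and chr4:98081725-98081816 (92 bases), both on the plus strand. Those of Nfib printed here span chr4:82320474-82320556 (83 bases) and chr4:82310303-82310391 (89 bases), both on the minus strand. Those of Nfix span chr8:84723728-84723850 (123 bases) and chr8:84716141-84716288 (148 bases), also on the minus strand. In these transcripts each exon is coding over its whole length.
Nfia 129 bases: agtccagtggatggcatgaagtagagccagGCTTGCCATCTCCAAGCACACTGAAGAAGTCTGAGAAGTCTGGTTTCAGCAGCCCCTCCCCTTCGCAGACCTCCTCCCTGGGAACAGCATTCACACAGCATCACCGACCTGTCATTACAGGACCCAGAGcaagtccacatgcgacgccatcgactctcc
Nfix 123 bases: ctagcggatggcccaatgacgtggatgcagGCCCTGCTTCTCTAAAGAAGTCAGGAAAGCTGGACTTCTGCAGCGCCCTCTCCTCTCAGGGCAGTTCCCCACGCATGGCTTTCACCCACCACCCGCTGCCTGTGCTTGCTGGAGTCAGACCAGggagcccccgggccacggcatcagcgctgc
Nfia 92 bases: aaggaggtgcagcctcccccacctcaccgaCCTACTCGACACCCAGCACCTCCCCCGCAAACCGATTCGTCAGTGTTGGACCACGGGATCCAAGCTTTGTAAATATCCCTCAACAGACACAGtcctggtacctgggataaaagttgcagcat
Nfib 83 bases: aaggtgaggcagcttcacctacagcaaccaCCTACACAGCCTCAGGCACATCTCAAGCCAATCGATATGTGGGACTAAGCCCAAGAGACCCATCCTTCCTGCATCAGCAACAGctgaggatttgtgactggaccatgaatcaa
Nfib 89 bases: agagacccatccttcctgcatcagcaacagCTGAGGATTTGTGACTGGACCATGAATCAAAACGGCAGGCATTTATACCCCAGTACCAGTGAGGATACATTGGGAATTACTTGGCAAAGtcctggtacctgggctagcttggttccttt
Nfix 148 bases: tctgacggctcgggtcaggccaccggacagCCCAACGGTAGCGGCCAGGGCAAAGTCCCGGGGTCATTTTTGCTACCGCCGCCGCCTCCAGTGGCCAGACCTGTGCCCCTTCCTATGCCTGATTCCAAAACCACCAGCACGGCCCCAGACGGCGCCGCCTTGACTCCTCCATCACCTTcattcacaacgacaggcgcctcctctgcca

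Global alignment of the 8 alternative Nfi exons over 27 pairs placed 3 pairs between different genes highest. Most of the 27 pairs were between different genes, so this placing says little by itself. Nfia 129 and Nfix 123 had 60.2% identical bases, Nfib 166 (the longer form of a further Nfib exon, at chr4:82323545-82323710) and Nfix 148 had 58.4%, and Nfia 92 and Nfib 83 had 57%. The next pair had 53.9%, the median of the pairs was 47.1% and the lowest was 39.2%. These identities describe the letters only.

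Of the 10 genes, 9 were at 1 TPM or more in both libraries, where 33.4% of all annotated genes were, and 8 were at 10 TPM or more, where 20.5% were. All 10 are protein-coding. Among the 21474 protein-coding genes, 60.9% were at 1 TPM or more in both libraries, and 8592 genes were at 10 TPM or more. TPM (the deposited transcript abundance) is a relative abundance corrected for transcript length. Neurod1 was the highest member and Atoh1, the factor of the progenitors, was close to 0. The median of the 10 genes was 35.9 TPM, beside 4.77 TPM over protein-coding genes. In whole tissue, fewer cells of a type and less RNA per cell cannot be told apart, and a tissue level does not say which cells hold the RNA.

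Among the bHLH members, Neurod1, which drives granule neuron differentiation, had 198.71 TPM in replicate 1 and 152.22 TPM in replicate 2 (175 ± 32.9, SD, n = 2). Both values lay above those of every other member. Neurod2, a relative that acts in the survival and synaptic maturation of neurons, had 44.83 and 36.38 TPM (40.6 ± 5.98, SD, n = 2). Atoh1 had 0.01 and 0.03 TPM, resting on 1 and 3 counts, which is at or under the 3 counts taken here as the detection floor.

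Among the homeobox members, Pax6, which carries both a paired domain and a homeodomain, had 67.46 and 53.5 TPM (60.5 ± 9.87, SD, n = 2). With transcripts of at least 1000 bases alone, a choice made after seeing the data, Pax6 had 41.08 and 33.47 TPM (mean 37.3), below the mean of Neurod2. Meis1, a TALE-class homeodomain factor that acts in granule neuron differentiation, had 30.16 and 29.29 TPM (29.7 ± 0.615, SD, n = 2). Barhl1, a BarH-class homeodomain factor needed for granule neuron migration and survival, had 7.96 and 7.97 TPM, the lowest of the 9 genes above the threshold. The 2 libraries were closer to each other for Meis1 and Barhl1 than for Pax6.

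Etv1, an ETS-domain factor that responds to neuronal activity and promotes granule neuron maturation, had 109.33 and 85.98 TPM (97.7 ± 16.5, SD, n = 2). Of the NFI genes, which control dendrite and synapse formation in these neurons, Nfix had 69.06 and 62.4 TPM (65.7 ± 4.71, SD, n = 2). Nfia had 36.03 and 26.17 TPM (31.1 ± 6.97, SD, n = 2) and Nfib had 29.83 and 28.06 TPM (28.9 ± 1.25, SD, n = 2). Nfix therefore lay above Nfia and Nfib in both libraries, while the ranges of Nfia and Nfib overlapped. That overlap was lost with transcripts of at least 1000 bases alone, a choice made after seeing the data. Nfia then had 17.93 and 16.03 TPM, below Nfib at 29.21 and 26.96 TPM.

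From high to low the order was Neurod1, Etv1, Nfix, Pax6, Neurod2, Nfia, Meis1, Nfib, Barhl1 and Atoh1. The ranges over the libraries overlapped for the neighbours Nfix and Pax6, Nfia and Meis1, and Meis1 and Nfib, so these neighbours do not differ beyond their spread. Neurod1 exceeded 97% of protein-coding genes, Etv1 93.8%, Barhl1 56% and Atoh1 20.8%. In the deposited mm9 RPKM values (reads scaled by length and depth, on an older annotation and with replicate numbers that name no library), Pax6 came before Etv1, at 13.5 and 9.48 RPKM against 10.4 and 9.07 RPKM. There, Nfia came after Nfib and Meis1, at 2.95 and 2.55 RPKM.

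**Figure D1:**
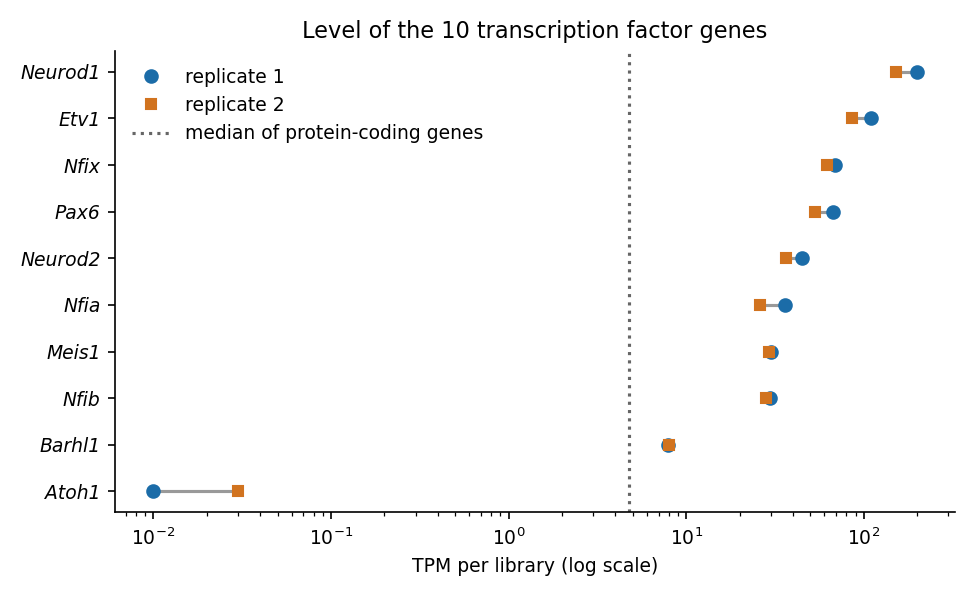
TPM of each gene in replicate 1 (circles) and replicate 2 (squares) on a log axis; the dotted line is the median of protein-coding genes, 4.77 TPM. The 9 genes from Barhl1 upward lie right of that line in both libraries, and Atoh1 lies at 0.01 and 0.03 TPM.

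The E proteins, dimer partners of the bHLH members, were at 1 TPM or more in 3 of 3 genes: Tcf4 at 55.05 and 48.99 TPM, Tcf12 at 39.72 and 33.61 TPM and Tcf3 at 25.41 and 21.64 TPM. The Id genes, whose products bind E proteins and lack a DNA-binding region, were also at 1 TPM or more in 4 of 4 genes. Id2 was the highest of them at 162.57 and 132.41 TPM, and Id3 the lowest at 36.08 and 33.94 TPM. Of 13 bHLH relatives of the NeuroD, neurogenin, Atoh and related groups, 6 were at 1 TPM or more, with a list median of 0.26 TPM. The highest were Bhlhe22 at 19.01 and 15.83 TPM and Atoh7 at 18.17 and 13.61 TPM, and Neurog1, a neurogenin of sensory and other progenitors, was lowest at 0.01 and 0 TPM. Neurod1 and Neurod2 thus stood above each of the 13 relatives in both libraries.

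Relatives of the other members were mostly present. Nfic, the fourth NFI gene, had 70.24 and 65.05 TPM, a range that overlapped that of Nfix. The 8 other TALE genes were all at 10 TPM or more, from Meis3 at 61.38 and 59.77 TPM to Pbx4 at 11.73 and 12.91 TPM, with a median of 21.9 TPM. Meis2 had 23.75 TPM in replicate 1 and 37.19 TPM in replicate 2, a wider gap than that of Meis1. Etv5 (23.29 and 22.6 TPM) and Etv4 (17.7 and 17.01 TPM), the other ETS genes of the PEA3 group, were each below Etv1. Barhl2 had 25.15 and 21.18 TPM, above Barhl1 in both libraries. Of the 8 other Pax genes 3 were at 1 TPM or more, with Pax2, a factor of cerebellar interneuron precursors, highest at 5.87 and 5.29 TPM, and Pax4 and Pax9 were listed at 0 TPM in both.

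Lists of genes named for successive stages of the lineage differed in median level, with a wide spread within each list. Whether these genes are confined to the stage they are listed under was not tested, so the medians do not measure stages. Of 8 progenitor genes 6 were at 1 TPM or more, with a median of 2.45 TPM. Ptch1, the Hedgehog receptor, which glia also express, had 43.83 and 41.66 TPM, while the proliferation gene Mki67 had 0.06 and 0.06 TPM. Of 7 genes of young postmitotic granule neurons 5 were at 1 TPM or more, led by the neuronal tubulin Tubb3 at 438.5 and 432.82 TPM, and the median was 11.8 TPM. The migration gene Dcx had 1.66 and 1.79 TPM, and Igfbpl1 was lowest at 0.33 and 0.24 TPM. Mature granule neuron genes were at 10 TPM or more in 14 of 14, with a median of 186 TPM. They ran from the zinc finger factor Zic1 at 845.6 and 711 TPM to the cadherin Cdh15 at 25.82 and 19.33 TPM. Of 5 granule genes known as NFI targets, 5 were at 10 TPM or more, with a median of 35.7 TPM. Gabra6, a GABA receptor subunit typical of mature granule neurons, led them at 336.11 and 269.46 TPM, and the receptor tyrosine kinase gene Ephb1 was lowest at 22.31 and 23.84 TPM.

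**Figure D2:**
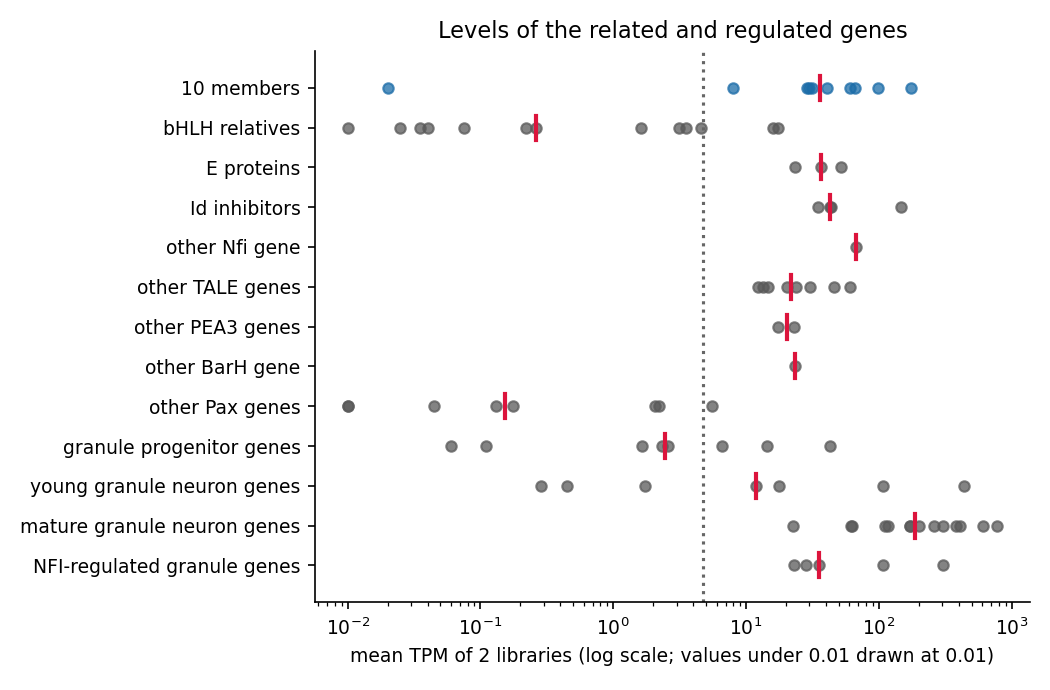
Mean TPM over both libraries on a log axis, 1 point per gene, for the 10 members (blue) and for lists of related genes and genes named for lineage stages (grey), with red bars at list medians and the dotted line at the protein-coding median. The medians run from 0.152 TPM for the other Pax genes to 186 TPM for mature granule neuron genes.

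Other cells of the tissue were represented too. The 5 granule neuron markers had a median of 259 TPM, the 5 Purkinje neuron markers 244 TPM, the 5 oligodendrocyte markers 865 TPM, and the 5 markers of astrocytes and Bergmann glia 135 TPM. The 4 markers of cycling progenitors, which include the member Atoh1 itself, had a median of 0.085 TPM, with Gli1 highest at 7.49 and 5.79 TPM. Those of forebrain excitatory neurons had a median of 0.27 TPM, with Neurod6 highest at 3.49 and 3.53 TPM. Unipolar brush cells, which arise from the same germinal zone, were represented by Eomes at 4.5 and 3.81 TPM and Lmx1a at 0.82 and 0.72 TPM.

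Replicates 1 and 2 were compared by the log2 ratio of counts scaled by TMM (a scaling by the trimmed mean of gene ratios), for genes whose counts summed to 100 or more; 9 members entered, and Atoh1 did not. Of these 9, 8 had a ratio above 0, with a median of 0.12 on the log2 scale, while 7721 of the 15543 genes entered had one and their median was 0.00. Neurod1 was the 1 member past 1.2-fold, which 15.1% of genes passed in either direction and 7.15% with replicate 1 higher. Its counts were 26633 and 21553, a 1.25-fold difference with an exact 95% counting interval of 1.22 to 1.27. No member passed 2-fold, which 0.637% of genes did. The ratios have no replicate behind them and no p-value.

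Etv1 had 20459 and 17237 counts and a log2 ratio of 0.26, just under the 1.2-fold line. Neurod2 had 6988 and 5993 counts (log2 ratio 0.23) and Pax6 had 6145 and 5273 (log2 ratio 0.23). The counting intervals of the ratio lay above 1 for Neurod1, Etv1, Neurod2 and Pax6. Nfia had 9168 and 8523 counts (log2 ratio 0.12, counting interval 1.05 to 1.12). Nfix, Barhl1 and Nfib had ratios of 0.04, 0.03 and 0.02, and Meis1 had 4672 and 4876 counts and the 1 negative ratio, -0.05. The intervals of Barhl1, Nfib and Meis1 included 1, so their counts did not differ beyond counting error.

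On the TPM scale, with 1 TPM added, 5 members passed 1.2-fold with replicate 1 higher, where 7.62% of genes did and 10.9% did in either direction: Neurod1, Etv1, Neurod2, Pax6 and Nfia. On that scale the median of all genes was 0.06 above 0. For Nfia the TPM ratio was 1.38 while the ratio of scaled counts was 1.08. Nfia-207, a transcript of 821 bases, held 16.44 and 8.52 TPM from 543 and 296 counts, and with transcripts of at least 1000 bases alone Nfia had 17.93 and 16.03 TPM, a ratio of 1.12.

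Markers of several cell types moved along with these differences. All 14 mature granule neuron genes had a positive log2 ratio, with a median of 0.24 and a range of 0.17 to 0.35, and their summed level was 4035 and 3275 TPM. The 5 Purkinje markers had a median ratio of 0.19 (summed 2486 and 2068 TPM) and the 4 unipolar brush cell markers 0.20 (summed 114 and 91.7 TPM). Oligodendrocyte markers went the other way in 5 of 5 genes, with a median of -0.31 (summed 6083 and 7186 TPM). Markers of oligodendrocyte precursors (4 genes, median -0.24), microglia (4, -0.15), endothelium (4, -0.14) and mural cells (3, -0.05) also had negative ratios throughout. Of these, the precursor marker Pdgfra (-0.0096) and the mural marker Vtn (-0.0014) were close to 0. In the same order, the summed levels were 72.6 and 81.5, 50.9 and 54.7, 171 and 181, and 140 and 145 TPM. By TPM, 1 precursor, 1 endothelial and 2 mural markers were higher in replicate 1. Markers of astrocytes and Bergmann glia had a positive ratio in 4 of 5 genes, with a median of 0.18 and a highest value of 0.58 (summed 773 and 654 TPM), and those of molecular layer interneurons in 3 of 5, with a median of 0.10 (summed 1193 and 1095 TPM). The 4 choroid plexus markers had a median of 1.29, led by the transport protein gene Ttr at 2085.86 and 763.18 TPM, and the 3 markers of meninges had 0.34 (summed 88.7 and 60.5 TPM). No list named in this paragraph had a marker at 0 in either library, and the part of these cell types in the members' ratios was not tested.

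**Figure D3:**
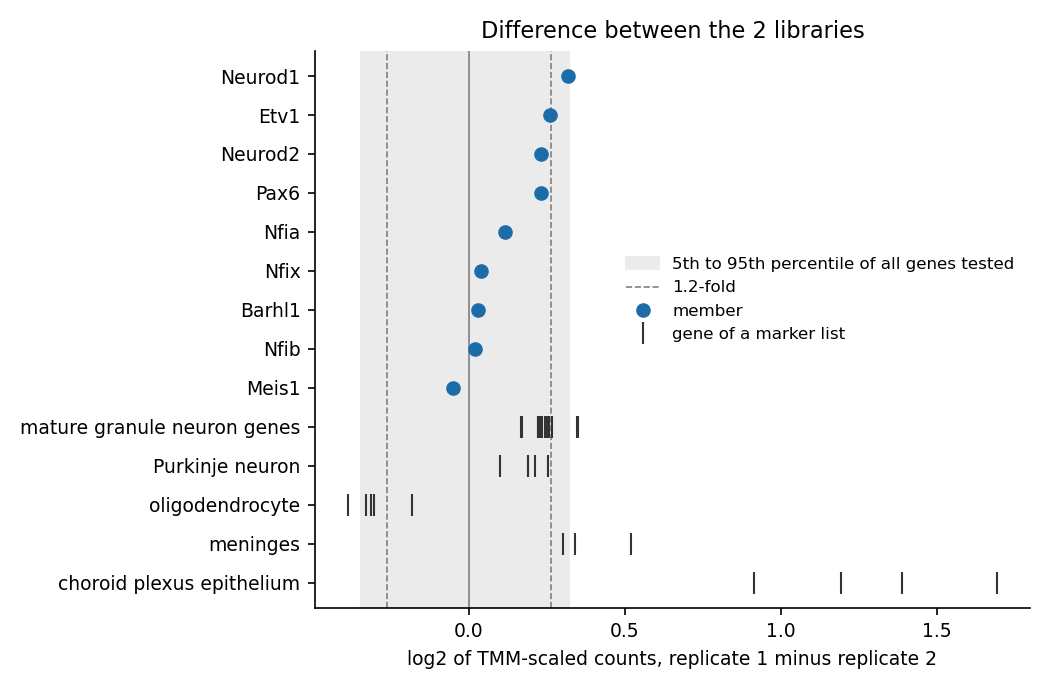
Log2 ratio of TMM-scaled counts, replicate 1 minus replicate 2, for 9 members (circles) and for the genes of 5 lists (ticks); the band spans the 5th to 95th percentile of all 15543 genes and dashed lines mark 1.2-fold. Neurod1 lies right of the dashed line, Meis1 lies left of 0, the 14 mature granule genes lie right of 0 and the 5 oligodendrocyte markers left of it.

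The 10 genes had 84 annotated transcripts in the tables, 83 of which were matched by name, and 21 held at least 10% of their gene's TPM in either library. Shares are the percent of the gene's TPM that the authors' program assigned, and for transcripts that share most exons they depend on its model. Neurod1, Neurod2 and Atoh1 had 1 transcript each. Etv1-202, with 10 exons, took 70.18% and 68.97% of Etv1, and Etv1-201, with 13 exons, took 14.84% and 17.43%. Nfix-204 took 65.89% and 68.75% and the shorter Nfix-201 16.91% and 15%. Nfib-202 took 51.4% and 52.52%, with Nfib-201 at 13.31% and 14.09% and Nfib-203 at 12.48% and 11.72%. In these 3 genes the leading transcript was the same in both libraries and its share differed by under 3 percentage points.

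Meis1-201, which is coding, took 57.02% and 60.49% of Meis1, and the noncoding Meis1-203 took 22.21% and 20.4%. Pax6 was the most divided gene, with 26 transcripts. Its highest was Pax6-210, a noncoding processed transcript of 983 bases, at 21.46% and 15.73%, followed by the coding transcripts Pax6-207 (10.56% and 12.37%), Pax6-202 (9.56% and 12.39%) and Pax6-204 (10.67% and 7.39%). By expected counts, which are not divided by length, Pax6-210 held 9.81% and 6.99% and Pax6-202 led in both libraries, with 980 and 1065 counts against 603 and 369. Coding transcripts together held 50.7% and 51.9% of Pax6 TPM, the lowest coding share among the members.

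By TPM, the leading transcript changed between the libraries in 2 genes. For Nfia it was Nfia-207 in replicate 1 (45.62%, against 32.55% in replicate 2) and Nfia-202 in replicate 2 (47.17%, against 34.52%). Nfia-202 has 9526 bases and held 6141 and 6447 counts, so by counts it led in both libraries. Nfia-203 held 10.77% and 9.09%. For Barhl1 it was Barhl1-201 in replicate 1 (47.78%, against 34.82%) and Barhl1-203 in replicate 2 (49.77%, against 43.05%). By counts Barhl1-201 led in both libraries, with 698 and 538 counts against 346 and 422.

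**Figure D4:**
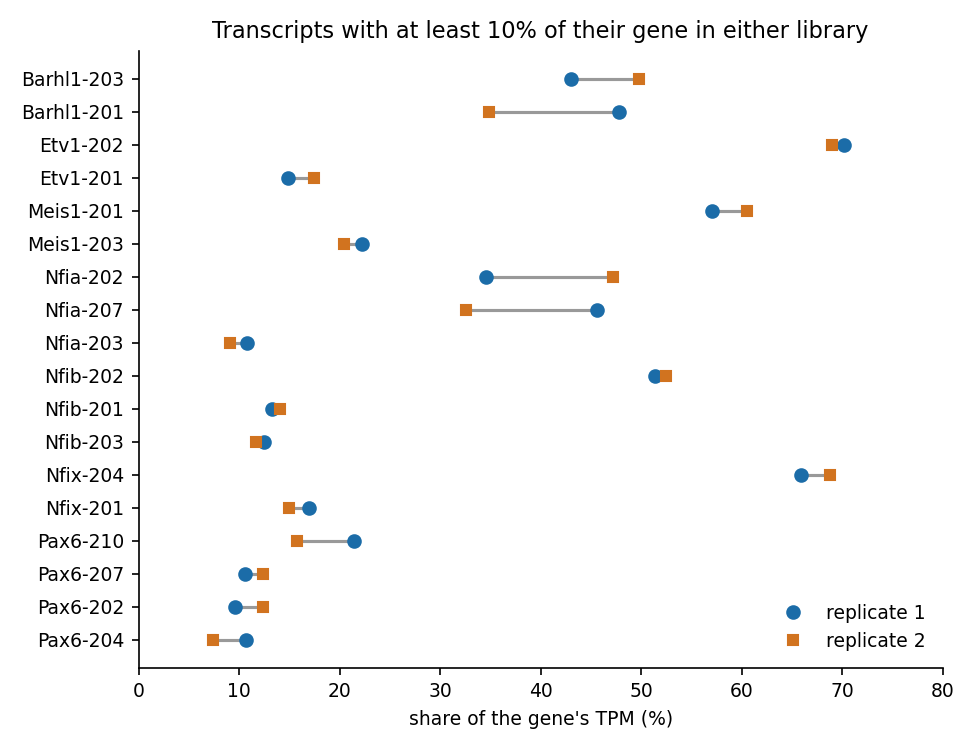
Share of the gene's TPM, in percent, in replicate 1 (circles) and replicate 2 (squares) for the transcripts holding at least 10% in either library, genes with 1 transcript left out. Points of Etv1, Nfib and Nfix lie close together, while Nfia-202 and Nfia-207 and the Barhl1 pair exchange places.

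Exon use was read from the deposited mm9 junction reads. Inclusion is the mean of the reads entering and leaving an exon over that mean plus the reads that skip it, given for mm9 replicates 1 and 2, whose numbers name no library. Of 36 member exons with a skipping junction, 36 had at least 20 informative reads in each replicate, and 14 exons of 6 genes were between 5% and 95% included in either. For 14 of the 14 the 95% Wilson intervals of the replicates overlapped. Outside these 14, the Meis1 95-base exon fell just above the limit, at 95% (92.5% to 97.1%) and 99.2% (97.7% to 99.7%). Its intervals did not overlap, and it had 17 and 3 skipping reads. These intervals cover counting error only.

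By this measure of inclusion, the Pax6 5a exon (mm9 chr2:105524908-105524949) was skipped more often than included. In mm9 replicate 1, 95 reads entered it, 142 left it and 197 skipped it, which is an inclusion of 37.6% (32.2% to 42.8%). In mm9 replicate 2 the counts were 66, 79 and 161, an inclusion of 31% (25.2% to 37%). The skipped form shown above was thus the more frequent in both. From the entering junction alone the inclusion was 32.5% and 29.1%, and from the leaving junction alone 41.9% and 32.9%. In the mm10 transcript table, the 9 Pax6 transcripts with the exon held 25.5% and 23.5% of the TPM of all transcripts that include or skip it. The authors' mm9 RPKM of the exon was 49.4% and 52.5% of the mean of its flanking exons, but each exon RPKM in that table is the sum of its transcripts' RPKM, so it is no separate count of reads.

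Of the other Pax6 exons, the 229-base exon upstream of the coding part was included at 90.2% and 90.7%. A 63-base exon was at 2.87% and 1.5%, below the 5% limit.

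Nfia, Nfib and Nfix had 16 such exons, of which 8 were between 5% and 95% included. In Nfix, the 123-base exon was included at 75.8% (71.9% to 79.3%) and 73.3% (69.3% to 77%), from 455 and 426 entering reads. The Nfix 148-base exon was included at 31.4% (26.2% to 37.8%) and 35.5% (28.9% to 42.7%), so by this measure it was skipped more often than included. For this exon the mm10 transcript table gave the opposite majority, with 70.6% and 74.1% of TPM in transcripts that include it, whereas for the 123-base exon it gave 76% and 78%. The cause of the difference for the 148-base exon was not tested.

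In Nfib, exons near the 3' end were skipped more often than included by the inclusion measure. The 83-base exon was at 33.7% (27% to 40.4%) and 27.1% (20.1% to 34.9%), and the 89-base exon at 28.6% and 27.5%. A further exon, upstream of these, has forms of 139 and 166 bases that share a start, so reads entering it count for both: 33.5% and 42.9% of reads entered it and the rest skipped it. By the leaving junction, which tells the forms apart, the shorter was included at 16.9% and 9.01% and the longer at 23.1% and 22.9%. With the shared entering reads counted in full for each, as in the plot of inclusion, the values were 26.1% and 29.9% for the shorter form and 28.7% and 34.4% for the longer. Of the reads entering the 83-base exon, 59.7% and 69.8% came from the longer form and 35.5% and 23.3% from the shorter. In the mm10 transcript table the 83-base and 89-base exons were in 33.6% and 33% and in 22.3% and 22.5% of TPM. In Nfia, the 129-base exon was at 93% and 92.3% and the 92-base exon at 93.2% and 96%, and the pairs of highest identity can be set side by side. By inclusion, Nfia 92 was mostly included and Nfib 83, its closest match by identity, mostly skipped, with intervals that do not overlap. Nfia 129 likewise lay above Nfix 123, with intervals apart in both replicates. In the remaining pair, Nfib 166 (28.7% and 34.4%) and Nfix 148 (31.4% and 35.5%) had overlapping intervals, with the Nfib value counting the shared entering reads. By the leaving junction alone, Nfib 166 was lower, at 23.1% and 22.9% against 38.1% and 38.5% for Nfix 148. By the entering junction, shared by both Nfib forms, it was higher, at 33.5% and 42.9% against 23.2% and 32.2%. The overlap of this pair therefore holds for the combined value only.

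Exons of Etv1 and Meis1 were mostly included. The Etv1 exons of 248 and 102 bases were at 91.9% and 93% and at 94.7% and 96.2%. The Meis1 exons of 147 and 146 bases were at 95.5% and 94.9% and at 90.9% and 92.6%.

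**Figure D5:**
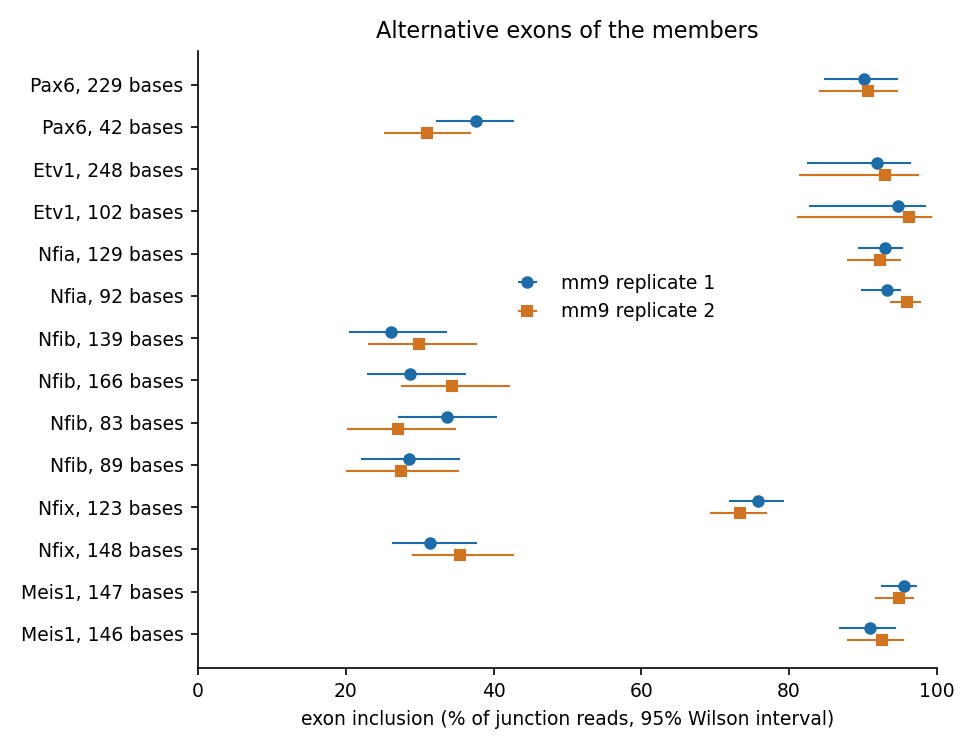
Inclusion of the 14 alternative exons as a percent of junction reads in mm9 replicates 1 (circles) and 2 (squares), with 95% Wilson intervals. The Pax6 42-base exon, the 4 Nfib exon forms and the Nfix 148-base exon lie between 26.1% and 37.6%, the Nfix 123-base exon at 75.8% and 73.3%, and the other 7 at 90.2% or more.

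Starts of the genes also varied. In Nfix, of all 166 and 147 reads into the shared acceptor at mm9 position 87296215, 52.4% (44.8% to 59.9%) and 42.9% (35.1% to 50.9%) came from the upstream first exon and 31.3% and 42.2% from a first exon nearer to it. The other reads came from unannotated junctions. In Nfia, the first exon nearer to the shared acceptor gave 84.6% and 75.7% of all reads into it and the one farther upstream 14.6% and 18.7%. In Pax6, the internal 229-base exon gave 86.6% and 90.1% of the reads into the next acceptor. The most upstream first exon gave 7.26% and 5.59% of them directly, and a downstream first exon 6.15% and 3.11%. Of all 85 and 70 reads into the 229-base exon itself, the same most upstream first exon gave 29.4% and 24.3%. The next first exon gave 27.1% and 22.9% of these, and the nearest one 41.2% and 51.4%. A choice between splice acceptors 3 bases apart in Nfix (mm9 87250501 and 87250504) gave 17.1% and 17.6% to the farther one.

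Overlapping genes set limits on some levels. Cerkl, on the same strand, spans Neurod1 and had 704 and 557 counts, so reads could be divided between them. Genes on the opposite strand, E130114P18Rik at Nfia (491 and 439 counts) and Gm11266 at Nfib (343 and 322 counts), overlap members in position, and the libraries are labelled as stranded.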

How the data were processed

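Strand-specific paired-end reads of 101 bases from 2 cerebellum libraries were quantified by the authors on mm10 with spike-in RNAs included. The authors deposited expected counts (estimated fragments per gene and transcript), TPM, posterior mean TPM and the percent of gene TPM per transcript. On mm9 they deposited RPKM per Ensembl 65 gene, transcript and exon, a count of reads per splice junction, and a coverage signal per contig over both replicates. For the aligner and its version, nothing is stated in the labels or headers used here. TPM is relative to all entries, and mitochondrial genes took 20% and 23% of it.

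Members and gene lists were chosen with earlier results of these data known. Named are the 10 members, up to 4 highest genes and the lowest or undetected ones of each list, transcripts with at least 10% of their gene, and exons between 5% and 95% included. Rounded expected counts were scaled by TMM in edgeR 4.0.16 (R 4.3.3, prior count 2, at least 100 counts over both libraries), with DESeq2 1.42.0 size factors as an alternative, and the script was tested on simulated data. Intervals used scipy 1.17.1 at the 95% level. Gene, transcript and exon names came from GENCODE M21. With 1 group, no p-values were computed. Sequences of the proteins and an mm9 genome were not used here.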

Additional observations from a re-analysis of the deposited data

How the results depend on the processing

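The count of 9 members at 1 TPM or more was 9 at 0.5 TPM, at 5 TPM, with posterior mean TPM, with mm9 RPKM and without either replicate. Of the 10 places in the order of levels, 5 were kept by mm9 RPKM, 5 with transcripts of at least 1000 bases, and 7 to 10 with 1 library left out. The 99 genes at least 2-fold apart became 635 with a minimum of 10 counts and 37 by TPM + 1, and 99, 99 and 107 under the other 3 settings. The 1 member past 1.2-fold became 5 by TPM + 1 and 5 by TPM + 0.1, and stayed 1 under the other 3. Barhl1 and Meis1, whose log2 ratios were at most 0.05 in size, changed sign under some settings. Pax6 5a inclusion, 34.3% as the mean of the replicates, was 51% by exon RPKM and 31% to 37.6% with 1 replicate left out. The 8 Nfi exons became 7 to 8 with 1 replicate left out and 9 from the leaving junction alone. Among single genes, transcripts, exons and lists, 54 values moved by more than the replicate spread or counting interval and 197 did not. For levels, transcript shares and exons, a value with 1 library left out lies within the SD by arithmetic. Those settings are counted among the 197 whatever the data, so the 197 do not measure stability. Where values moved the cause was not tested, apart from the construction of each setting. No paired analysis was possible because there is 1 group. No count of members or genes apart exists with 1 library left out. Atoh1, with 1 and 3 counts, is at the limit of this depth.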

Other observations

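Coverage contigs on mm9, 1 value per contig over both replicates in the authors' coverage unit, whose scaling no header or label gives, showed signal on both strands at some members. Neurod1 lay in 1 sense contig with a signal of 24.8 and had no antisense contig. Neurod2 lay in 1 sense contig with a signal of 12.4, and inside it antisense contigs of 244 bases (chr11:98187146-98187389) and 209 bases (chr11:98187753-98187961) had 4.13 and 0.808. At Pax6 antisense contigs covered 47.2% of the gene, with 0.902 at the 3' end (chr2:105535054-105551396) and 0.607 at the 5' end (chr2:105506392-105515496), beside a highest sense signal of 4.02. At Nfix an antisense contig with a signal of 5.7 (chr8:87215727-87224182) overlapped the 3' end of the gene. The highest sense signal of the gene, 21.5, lay in a contig that did not overlap it (chr8:87228079-87232645). The Atoh1 locus had 1 contig of 274 bases with a signal of 0.054.

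Junction reads were uneven along single genes. In Etv1 they were 1051 and 1868 over the introns at chr12:39519812-39554364 and chr12:39554495-39557667, then 163 and 31 over the next annotated introns, although the last contig (chr12:39582047-39599946) had the highest sense signal of the gene, 9.62. In Pax6 they rose from 272 (chr2:105520465-105523984) to 1289 (chr2:105532778-105532893) and were 399 at the last intron. The single introns of Neurod1 and Neurod2 had 5001 and 224 reads, a wider gap than that of their TPM.

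Among junctions marked as absent from the annotation, Meis1 had 1 with 563 reads (chr11:18784476-18785591, 265 and 298 by replicate) and Pax6 had 1 with 477 reads (chr2:105520044-105520400, 265 and 212). Neither has annotated exon ends of its gene on both sides, and whether 1 side does was not examined.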
